A study of Mus musculus with 6 samples.

Results

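The genes described here encode nuclear subunits of the mitochondrial respiratory chain, the machinery of oxidative phosphorylation. A named list of 30 subunit genes was looked up by symbol among the 32285 features of the 6 deposited matrices, and all 30 were found, each as a single feature. The list was made by name and complex, but it was chosen with earlier results of these data known. Other subunits of every complex were left out of it. The list holds 12 genes of complex I, 2 of complex II, 4 of complex III, 7 of complex IV and 5 of complex V.

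The cells were leukocytes of mouse lung. Lungs had been perfused and digested, and cells carrying CD45, the surface phosphatase encoded by Ptprc that marks leukocytes, had been captured on magnetic beads and put through the droplet-based single-cell kit of 10x Genomics, per the labels' protocols. The 3′ ends of polyadenylated RNA were counted by unique molecular identifier (UMI). There were 3 libraries of normal lung (normal 1 to 3) and 3 of lung infiltrated by acute myeloid leukaemia, a cancer of myeloid precursor cells (AML 1 to 3). Which leukaemia was used, the strain and age of the mice and the identity of leukaemic cells are not given in the labels. Nor do they state that each library came from its own animal, and p-values here therefore cover only variation among these 6 libraries, part of which may be technical.

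Oxidative phosphorylation passes electrons from NADH through complex I, or from succinate through complex II, to ubiquinone, then through complex III and cytochrome c to complex IV, where oxygen is reduced. Complexes I, III and IV move protons across the inner membrane, and complex V, the ATP synthase, makes ATP from their return. Most subunits are encoded in the nucleus and imported, while a small core is encoded in mitochondrial DNA. Resident macrophages of the lung alveolus are known for high oxidative metabolism, and mature neutrophils for few mitochondria and a reliance on glycolysis.

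The 6 libraries held 73095 barcodes, of which 71634 passed the filters on genes, UMIs and mitochondrial share. Total UMIs per library lay between 43913245 and 66513826, but depth per cell was uneven, with a median of 9354, 6102 and 2740 UMIs per barcode in normal 1 to 3 and 9381, 3979.5 and 1067 in AML 1 to 3. AML 3 thus stands apart as the shallowest library, with 35229 kept cells. Cells were given a class only where they held at least 2 marker genes of it and at least 2 more than of any other of 22 classes, and no member was a marker. This placed 46391 cells, from 48.1% of kept cells in AML 3 to 93.1% in AML 1. A Ptprc UMI was found in 86.0% (AML 3) to 99.4% (AML 1) of kept cells, so the leukocyte label was borne out for most cells. Cells with endothelial markers should lack CD45. Of these, 9.09% of 11 cells in AML 1 to 41.6% of 209 in AML 3 held a Ptprc UMI. In AML 3 such a UMI was thus common outside leukocytes too, and the reason was not tested. Between libraries, 467 of 71166 distinct barcodes were shared.

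Together the 30 genes made up the largest share of UMIs in classical monocytes and alveolar macrophages and the smallest in B cells and neutrophils. Over all 6 libraries the share was 0.683% ± 0.144 in classical monocytes, the short-lived inflammatory monocytes, and 0.646% ± 0.0373 in alveolar macrophages (SD, n = 6 libraries, as in the following values). It was 0.518% ± 0.0786 in NK cells, 0.478% ± 0.0956 in nonclassical monocytes, which patrol vessel walls, and 0.439% ± 0.0648 in T cells. B cells had 0.328% ± 0.0363 and neutrophils 0.280% ± 0.0457. Alveolar macrophages ranked at the top in all 3 normal libraries, with 0.595%, 0.667% and 0.629% against 0.578%, 0.624% and 0.570% in classical monocytes. In AML 1 to 3 they had 0.638%, 0.706% and 0.640%, and classical monocytes 0.735%, 0.950% and 0.640%, so classical monocytes led in AML 1 and AML 2. By these unscaled shares the bottom position fell to neutrophils in 5 libraries and to B cells in AML 3, and the middle classes overlapped in their ranges. On the scaled levels tested below, B cells were the lowest class for most members. Smaller populations fell among the middle classes, with 0.524% in cDC1, 0.492% in plasmacytoid dendritic cells (pDC) and 0.437% in the endothelial-gated cells. The pDC value has n = 4 libraries, of which 1 is normal, and the endothelial value n = 5. Depth differed between classes as well. Median UMIs per cell reached from 1436 to 26367.5 in alveolar macrophages and from 995 to 5523 in neutrophils.

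**Figure D1:**
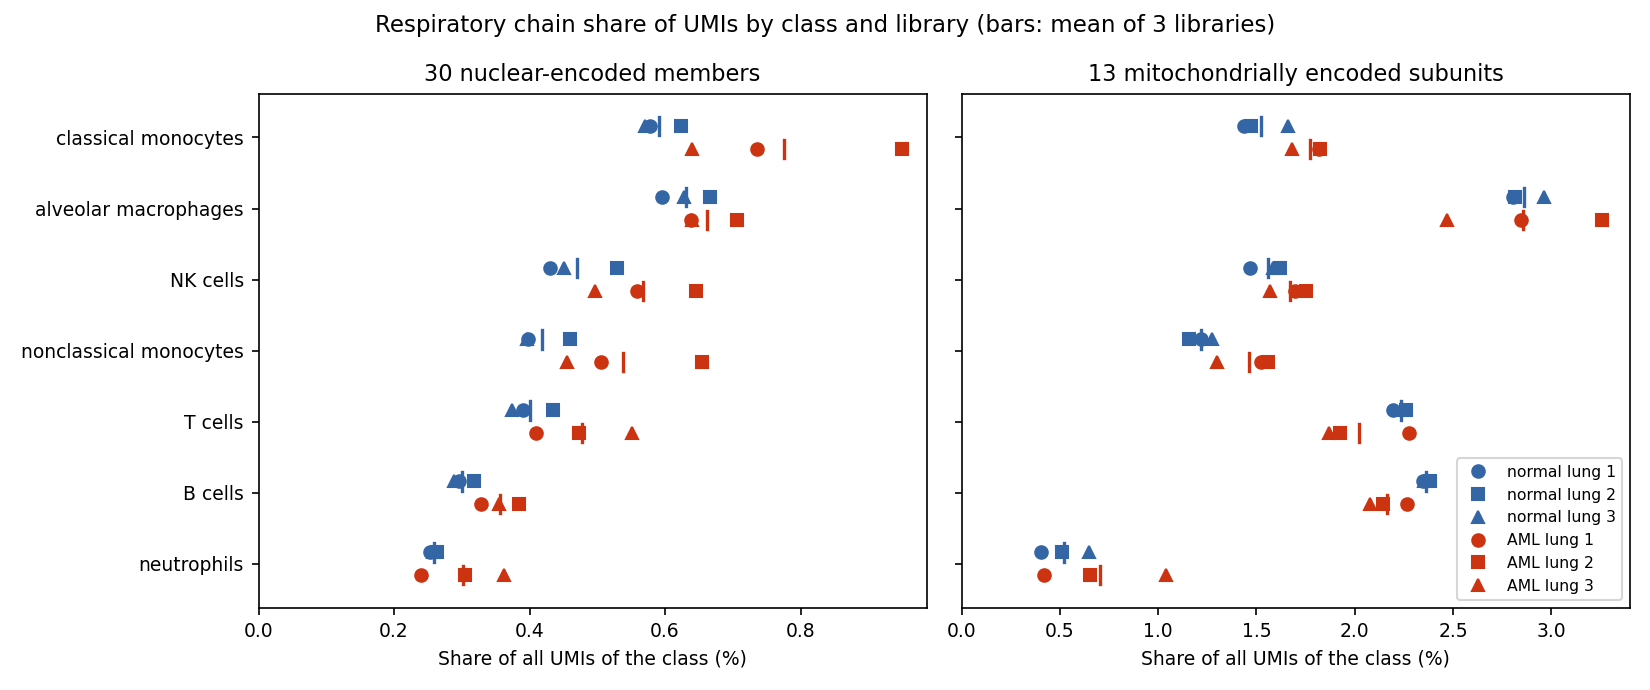
Share of all UMIs of a class (horizontal axis, percent, linear from 0) taken by the 30 nuclear members (left) and by the 13 subunits encoded in mitochondrial DNA (right), 1 symbol per library and a bar at the mean of 3 libraries. Nuclear members are highest in alveolar macrophages in the normal libraries (0.595% to 0.667%) and in classical monocytes in AML 1 and AML 2 (0.735% and 0.950%), while B cells, at 0.328% for the nuclear members, hold 2.26% for the mitochondrial ones.

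Each gene was then compared between a class and the mean of the other 6 main classes, with edgeR's quasi-likelihood F test on UMIs summed per library and class and the library as a block. Levels are in CPM, counts scaled to a library total of 1000000 UMIs, and since the kit counts transcript ends, they are set side by side only within a gene. In classical monocytes all 30 members were higher and none lower, where 33% of the 12909 features tested were higher and 28% lower. The median log2 difference was 0.72 over the members and -0.01 over all features. The heat map of class differences shows this column as the only one of a single colour besides B cells.

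In complex I, all 12 members were higher in classical monocytes. The largest difference was that of Ndufb8, an accessory subunit of the membrane arm, which stood at 125, 156 and 141 CPM in the classical monocytes of normal 1 to 3 and at 230, 282 and 168 CPM in those of AML 1 to 3. Their mean of 184 CPM compares with 84.7 CPM in the other classes, a log2 difference of 1.15 (SE 0.09, edgeR adjusted p = 1.3e-12). The membrane-arm subunits Ndufc1 (0.99) and Ndufb3 (0.96) and the matrix-arm subunit Ndufa6 (0.90) followed. In complex II, Sdhd, a membrane anchor of succinate dehydrogenase, differed by 0.90, and in complex IV the largest value was that of Cox5b, at 0.94. The smallest was that of Uqcr10, a small subunit of complex III, at 0.39. For 6 members, Ndufa1, Ndufb3, Ndufb8, Uqcrh, Cox4i1 and Cox5b, classical monocytes were the highest of the 7 classes in each of the 6 libraries.

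In alveolar macrophages 26 members were higher and 1 lower, against 39.1% and 35.5% of all features. The median log2 difference was 0.56 over the members and 0.02 over all features. All 7 members of complex IV and all 5 of complex V were higher, with 10 of 12 in complex I and 3 of 4 in complex III. Uqcr11, a small subunit at the edge of complex III, had the largest difference. It stood at 201, 218 and 191 CPM in normal 1 to 3 and at 159, 209 and 163 CPM in AML 1 to 3, with a mean of 190 ± 24.4 CPM against 79.1 CPM in the other classes, a log2 difference of 1.39 (SE 0.08, edgeR adjusted p = 6e-18). The lowest macrophage library was thus above the mean of the other classes.

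Cox5a, a nuclear subunit of complex IV, stood at 285, 343 and 330 CPM in alveolar macrophages of normal 1 to 3 and at 339, 316 and 361 CPM in those of AML 1 to 3, against a mean of 161 CPM elsewhere (log2 difference 1.16). Atp5g1, which encodes the c subunit of the rotor ring of ATP synthase, stood at 147, 181 and 178 CPM and at 154, 152 and 175 CPM in the same order (log2 difference 1.09). These values varied little between libraries or groups. Complex II went both ways, since Sdhd was higher by 0.62 and Sdhb, its iron-sulfur subunit, was lower. Sdhb stood at 61.3, 72.3 and 70.1 CPM in normal 1 to 3 and at 67.1, 75.5 and 76.9 CPM in AML 1 to 3, against 85.9 CPM elsewhere (log2 difference -0.23, SE 0.09, edgeR adjusted p = 0.019). Sdhb was not called lower in the normal libraries alone, where 27 members were higher and 0 lower. Ndufa6, Ndufb9 and Uqcrh did not pass the test. Cycling genes went with this class, 14 of 15 being higher in alveolar macrophages (median log2 difference 1.75), and their part in the result was not tested.

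**Figure D2:**
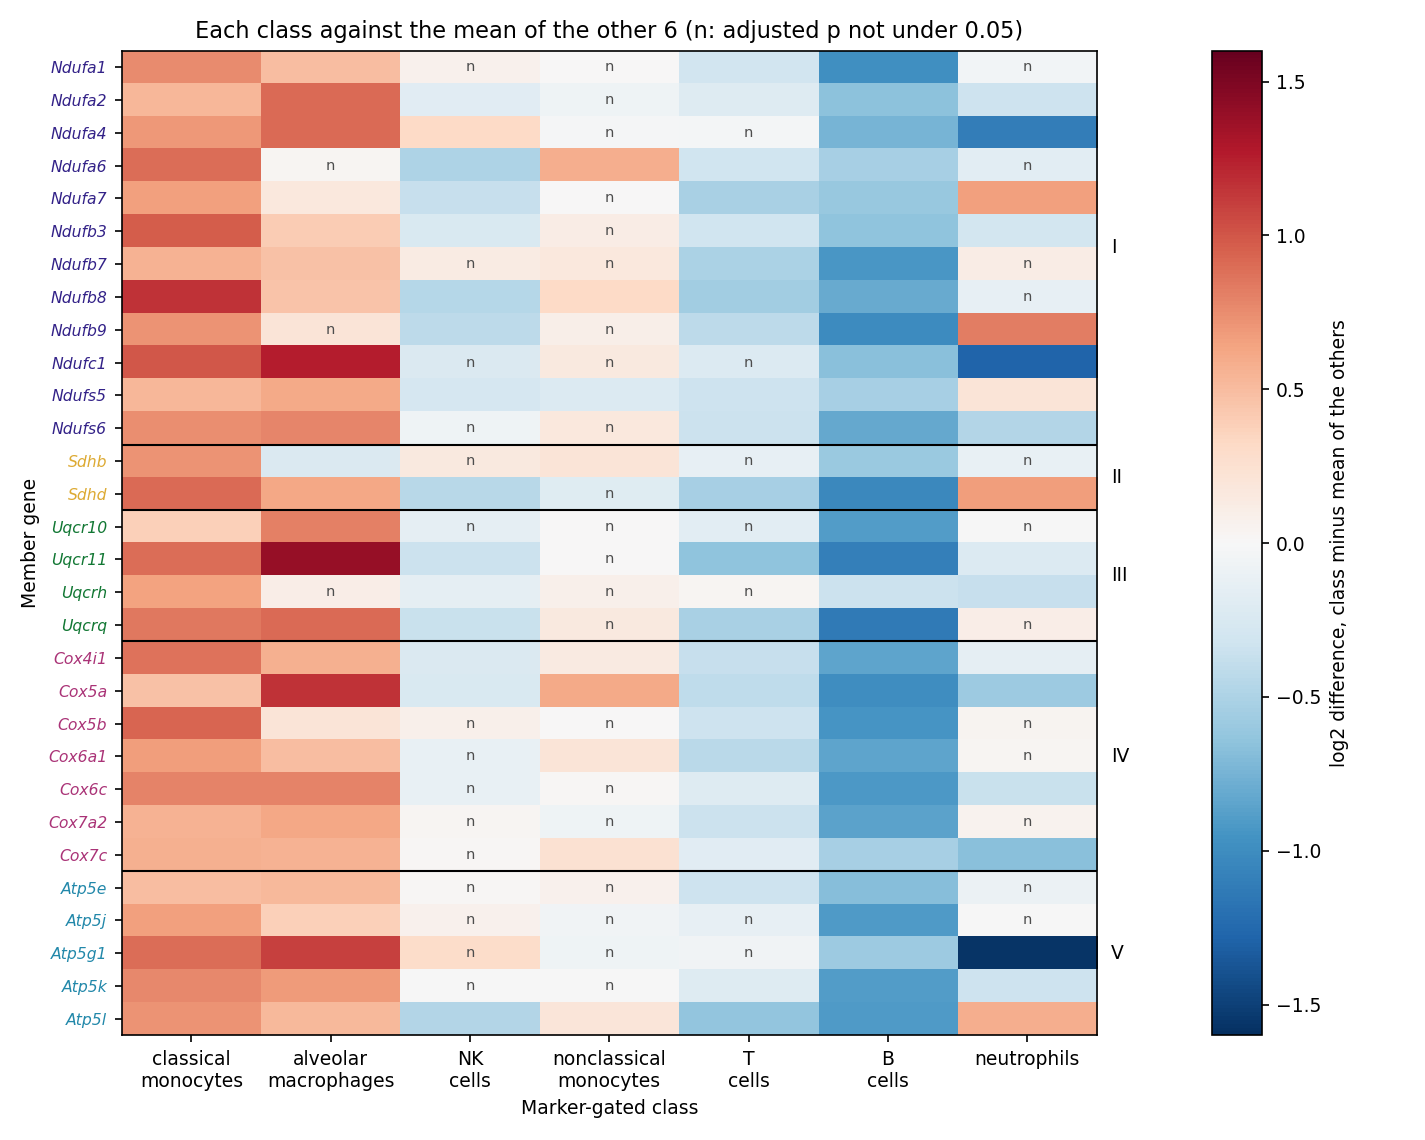
Heat map of the log2 difference in level between each class and the mean of the other 6 (columns) for the 30 members (rows, ordered by complex I to V), with n in a cell whose adjusted p was not under 0.05. Classical monocytes are higher in all 30 rows and B cells lower in all 30, while neutrophils run from -1.57 (Atp5g1) to 0.82 (Ndufb9).

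Neutrophils showed the widest spread among the members. Here 13 were lower and 5 higher, against 36.9% and 34% of all features, and the median log2 difference of -0.12 equalled that of all features, -0.12. Atp5g1 stood at 23.2, 13.6 and 32.2 CPM in normal 1 to 3 and at 23.3, 40.9 and 73.0 CPM in AML 1 to 3, against 110 CPM in the other classes (log2 difference -1.57). Ndufc1 stood at 18.7, 15.6 and 16.1 CPM and at 13.1, 33.2 and 36.6 CPM (-1.28), and Ndufa4 differed by -1.11. Ndufa4 was first assigned to complex I and since placed in complex IV, and the list used here counts it with complex I. AML 3 was the highest neutrophil library for both Atp5g1 and Ndufc1. In the other direction, Ndufb9, an accessory subunit of the membrane arm, stood at 157, 202 and 191 CPM in normal 1 to 3 and at 223, 237 and 143 CPM in AML 1 to 3 (log2 difference 0.82). Sdhd (0.67), Ndufa7 (0.66), Atp5l (0.58) and Ndufs5 (0.21) were also higher. In cells of 1000 to 6000 UMIs, 14 members were higher and 4 lower, with a median of 0.21, and the cause was not tested.

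B cells were the converse of classical monocytes. All 30 members were lower and none higher, against 32.4% and 34.3% of all features, and the median log2 difference was -0.84 over the members and 0.00 over all features. Uqcrq, a small subunit of complex III, stood at 66.0, 71.7 and 65.8 CPM in normal 1 to 3 and at 69.3, 80.5 and 80.2 CPM in AML 1 to 3, against 169 CPM elsewhere (log2 difference -1.13). Uqcr11 (-1.10), Sdhd (-1.03) and Ndufb9 (-1.01) followed, and Uqcrh, the acidic hinge protein of complex III, had the smallest difference, -0.34. For 19 members B cells were the lowest class in all 6 libraries. On this scale B cells were lowest in 144 of 180 pairs of member and library and neutrophils in 23. By the unscaled shares above, neutrophils were mostly the lowest class.

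T and NK cells lay nearer to the mean. In T cells 23 members were lower and 0 higher, against 33.3% and 34.8% of features, with a median log2 difference of -0.33 over the members and 0.00 over all features. The largest differences were those of Uqcr11 (-0.64) and Atp5l, a membrane subunit of ATP synthase (-0.63). Cycling genes were higher in T cells in 15 of 15 cases. In NK cells 14 members were lower and 1, Ndufa4 (0.31), higher, against 32.3% and 29.2% of features, with a median of -0.14 over the members and -0.03 over all features. DESeq2 gave 10 lower and 4 higher there, and edgeR with RLE size factors 10 and 5.

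Nonclassical monocytes stood closest to the mean of the other classes, with 8 members higher and 1 lower, against 30.6% and 26.8% of features. The median log2 difference was 0.08 over the members and 0.01 over all features. Cox5a (0.60) and Ndufa6 (0.58) led, followed by Ndufb8, Cox7c, Cox6a1, Sdhb, Atp5l and Cox4i1 at 0.14 to 0.32, and Ndufs5 was lower by 0.22 (log2 difference -0.22). With RLE size factors the split was 3 higher and 3 lower, with DESeq2 4 and 3, and in cells of 1000 to 6000 UMIs 2 and 1. Without normal 2, without AML 1 or without AML 2 the count was 5 in all, and without AML 3 it was 12.

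The remaining nuclear subunits are given by complex. Of 26 other complex I subunits, 24 were higher and 0 lower in classical monocytes, and 2 were higher and 20 lower in B cells. Of 13 other complex V subunits tested, all 13 were higher in classical monocytes and in alveolar macrophages, and 0 were higher and 12 lower in B cells. All 5 other complex III genes were higher in classical monocytes and 3 of 5 lower in B cells. In complex II, Sdhc was higher in classical monocytes (0.62) and lower in B cells (-0.65), and Sdha, the catalytic subunit, was lower in classical monocytes (-0.37) and higher in B cells (0.13). In neutrophils 20 of 26 other complex I genes, 10 of 13 of complex V and all 5 of complex III were lower. Nonclassical monocytes were higher in all 5 of the other complex III genes (Uqcrfs1, Uqcrc1, Uqcrc2, Uqcrb and Cyc1), at a median of 0.38, whereas 0 of 4 complex III members were called there.

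The 13 subunits encoded in mitochondrial DNA followed a different order of classes. Alveolar macrophages had 12 higher and 0 lower (median log2 difference 1.03), and neutrophils had 0 higher and 13 lower (-0.99). In B cells, where every nuclear member was lower, 11 of the 13 were higher and 0 lower (0.31), and in classical monocytes, where every nuclear member was higher, 2 were higher and 1 lower (-0.01). The ratio of mitochondrially encoded UMIs to member UMIs was 6.99 ± 1.08 in B cells, 4.97 ± 1.02 in T cells and 4.43 ± 0.336 in alveolar macrophages (SD, n = 6). It was 3.15 ± 0.289 in NK cells, 2.84 ± 0.324 in nonclassical monocytes, 2.46 ± 0.329 in classical monocytes and 2.13 ± 0.486 in neutrophils. The ratio thus ordered the lymphocytes and macrophages above the monocytes and neutrophils, with overlap between neighbours. Cells with 10% or more mitochondrial UMIs had been removed and do not enter this ratio.

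Genes of glycolysis, the cytosolic route to ATP, had their own order. Of 17 tested, 15 were higher and 2 lower in neutrophils (median log2 difference 0.92), 14 were higher and 1 lower in classical monocytes (0.75), 7 were higher and 6 lower in alveolar macrophages, and 0 were higher and 14 lower in B cells (-1.31). Classical monocytes were therefore high in both lists and B cells low in both, while neutrophils were high in glycolysis genes only. Of 16 genes of the tricarboxylic acid cycle, which supplies NADH and succinate, 9 were higher and 0 lower in alveolar macrophages. Classical monocytes had 10 higher and 1 lower, and neutrophils 2 higher and 13 lower.

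Subunit variants known for tissue-restricted use were high in few of these classes. Cox6b2, a variant of the complex IV subunit Cox6b1 best known from testis, stood at 44.4, 44.4 and 61.3 CPM in alveolar macrophages of normal 1 to 3 and at 61.6, 81.7 and 46.1 in those of AML 1 to 3 (library sizes not scaled). The libraries of both groups overlap. On the scaled levels of the test, the class mean of 56.0 CPM compares with 3.89 CPM in the other classes (log2 difference 4.35, SE 0.17, edgeR adjusted p = 9.0e-22). It was also higher in classical monocytes (1.83). Cox7a1, the heart and muscle variant of Cox7a2, was also higher in alveolar macrophages (6.48 against 0.46 CPM, log2 difference 3.83). Cox6a2, the heart and muscle variant of Cox6a1, was higher in NK cells than in the other main classes (11.1 against 1.11 CPM, log2 difference 3.58). In pDC, a class outside the test, Cox6a2 reached 701 ± 243 CPM with library sizes not scaled (SD, n = 4 libraries, range 442 to 960, from 1208 UMIs). On that unscaled measure NK cells had a mean of 13.3 CPM, and 0 UMIs were found in cDC1 and in mature dendritic cells.

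Members differed in how closely they followed the others across classes. For each library, the Spearman correlation between a gene's CPM and the summed CPM of the other 29 members was taken over the 7 classes, which share library and depth, and its median over 6 libraries is given as a description. It was 0.98 for Ndufc1, Ndufs6 and Atp5e and at least 0.86 for 23 members. It was lowest for Sdhb (0.61), Sdhd (0.61), Ndufa7 (0.66), Ndufb9 (0.66), Atp5l (0.68), Uqcrh (0.70) and Ndufa6 (0.75). Both complex II members were thus among the least alike.

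The members lie on 17 chromosomes, so no neighbourhood holds them together, and their upstream sequences are shown for 4 genes on which the results turn. Uqcr11 has the largest difference above 0 between a class and the others, Ndufb8 rose in whole AML libraries and Atp5j in classical monocytes of AML lung, and the AML change of Ndufa6 differed between monocyte classes. The sequences are RefSeq's for the GRCm38.p6 build, the assembly that mm10 also names, and end at the base before the annotated start or the nearest exon. Capitals mark a match to the relaxed motif of nuclear respiratory factor 1 (NRF1), GCNTGCGC, or to the ETS core, CCGGAAG, on either strand. NRF1 and the ETS factor GABP are known regulators of many respiratory chain genes.
Ndufa6, chr15:82354323-82354541, minus strand: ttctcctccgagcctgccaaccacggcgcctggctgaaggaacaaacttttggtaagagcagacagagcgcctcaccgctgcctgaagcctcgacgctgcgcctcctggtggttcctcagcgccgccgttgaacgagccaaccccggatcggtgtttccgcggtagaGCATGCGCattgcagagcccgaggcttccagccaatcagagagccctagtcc
Ndufb8, chr19:44555443-44555692, minus strand: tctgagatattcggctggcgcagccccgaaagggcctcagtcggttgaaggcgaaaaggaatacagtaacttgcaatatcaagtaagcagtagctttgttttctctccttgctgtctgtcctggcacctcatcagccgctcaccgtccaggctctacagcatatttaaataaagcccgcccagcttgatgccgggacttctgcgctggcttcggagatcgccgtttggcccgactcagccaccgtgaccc
Uqcr11, chr10:80406831-80407071, minus strand: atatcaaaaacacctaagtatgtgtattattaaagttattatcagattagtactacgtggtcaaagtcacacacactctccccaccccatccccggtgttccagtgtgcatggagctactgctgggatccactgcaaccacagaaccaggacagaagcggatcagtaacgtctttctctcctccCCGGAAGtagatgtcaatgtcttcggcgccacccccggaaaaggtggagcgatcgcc
Atp5j, chr16:84835626-84835875, minus strand: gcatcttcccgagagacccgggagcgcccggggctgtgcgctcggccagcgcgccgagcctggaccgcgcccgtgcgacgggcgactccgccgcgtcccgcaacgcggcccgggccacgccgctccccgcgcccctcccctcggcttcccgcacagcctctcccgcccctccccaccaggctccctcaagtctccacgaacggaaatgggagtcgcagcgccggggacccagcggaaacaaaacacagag
Ndufa6 holds an NRF1 match, Uqcr11 an ETS match, and the other two neither motif in the bases shown. Another promoter entry of Atp5j in the same table, not printed here, holds an ETS match. Counting the first listed entry of each of the 25 members present in the promoter table, 8 held the relaxed NRF1 motif in the 250 bases before the start, as did 8.3% of all 32851 promoters. The ETS core was found in 7 members and 6.91% of promoters, and 12 members held an NRF1 or an ETS match, or both, in that entry. The CCAAT box was in 10 members and 33.8% of promoters, TATAAA in 3 and 12.4%, and the YY1 core AANATGGCG in 0 and 1.12%. A match is a string of letters and not a measured site.

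The same genes were then compared between AML and normal lung, to see whether the respiratory chain differs when leukaemia is present. In whole libraries 3 members rose and 0 fell, against 6.04% and 3.44% of the 16808 features tested. Sdhb (chromosome 4, 140961203 to 140979193, plus strand) stood at 61.7, 75.2 and 72.5 CPM in normal 1 to 3 and at 98.5, 109 and 93.4 CPM in AML 1 to 3, which is 0.52 higher on the log2 scale (SE 0.12, edgeR adjusted p = 0.0417). Ndufb8 (chromosome 19, 44548572 to 44555440, minus strand) stood at 83.7, 94.3 and 78.9 CPM and at 122, 155 and 117 CPM, 0.62 higher (SE 0.14, edgeR adjusted p = 0.0423). Ndufb9 (chromosome 15, 58933756 to 58939488, plus strand) stood at 97.0, 111 and 101 CPM and at 145, 175 and 134 CPM, 0.55 higher (SE 0.13, edgeR adjusted p = 0.0435). In all 3 genes every AML library lay above every normal one and AML 2 was the highest.

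The calls were close to the threshold. Leaving out any library other than AML 3 left 0 members called, and leaving out AML 3 gave 7 (Ndufb9, Ndufb8, Ndufa6, Sdhb, Cox5b, Cox5a and Ndufb7). Ndufb8 and Ndufb9 each overlap another gene model on the same strand (Gm20538 and Gm49356), and Ndufb8 has a near-identical copy elsewhere in the genome, so reads could be shared and these values are uncertain. The largest log2 change, 0.77 for Ndufa6 from 119, 131 and 122 CPM to 178, 285 and 171 CPM, did not pass (adjusted p = 0.0564).

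Over all 30 members the median log2 change was 0.16, against -0.00 over all features, and 25 were above 0, as were 49.5% of features. For 13 members every AML library lay above every normal library, as for 19.1% of features, and for 0 below, as for 17.5%. All 7 complex IV members were above 0 (median 0.18), and the lowest members were Atp5k (-0.25) and Uqcr11 (-0.23). AML 2 was the highest library for 26 members, and without it 19 were above 0 with a median of 0.09. In cells of 1000 to 6000 UMIs all 30 were above 0 with a median of 0.48, and 0 passed.

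A whole library sums over its cells, so fewer cells of a type and less RNA per cell cannot be told apart. The makeup moved with the group. Nonclassical monocytes made up 9.98%, 12.2% and 9.25% of kept cells in normal 1 to 3 and 51.1%, 39.8% and 14.6% in AML 1 to 3, and all 6 of their markers were higher in AML (median log2 change 2.04). Alveolar macrophages made up 27.9%, 21.0% and 12.4% in normal and 6.28%, 2.77% and 6.26% in AML, and all 8 of their markers had a log2 change below 0 (median -1.83). The part of this shift in the member changes was not tested. Uqcr11 and Atp5k, which had the lowest changes in whole libraries, were higher in alveolar macrophages than in other classes, as were 26 of the 30 members. Atp5k also lay lower in AML lung within alveolar macrophages, without being called.

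Beside the members, 4 other complex I genes rose in whole libraries (Ndufs8, Ndufa11, Ndufv2 and Ndufb5), as did the complex III genes Uqcrc1 (0.55), Uqcrfs1 (0.56) and Uqcrc2 (0.47), Cox7a2l of complex IV (0.52) and Atp5c1 (0.50) and Atp5d (0.55) of complex V. Sdhaf1, an assembly factor that helps insert iron-sulfur clusters into Sdhb, rose by 1.20 on the log2 scale. The 13 mitochondrially encoded subunits all had a log2 change below 0 (median -0.19), and 0 passed. Their share of UMIs was 2.27%, 2.29% and 2.21% in normal 1 to 3 and 1.78%, 1.77% and 1.64% in AML 1 to 3. The ratio of mitochondrially encoded to member UMIs was 4.58 ± 0.267 in normal lung and 3.24 ± 0.369 in AML lung (SD, n = 3), without overlap. Within the main classes the groups overlapped in this ratio everywhere but in B cells. In neutrophils alone its mean was higher in AML lung (2.25) than in normal lung (2.01). The mitochondrially encoded share went both ways by class. In nonclassical monocytes it was 1.22%, 1.16% and 1.27% in normal 1 to 3 and 1.52%, 1.56% and 1.30% in AML 1 to 3. In classical monocytes it was 1.44%, 1.47% and 1.66% and then 1.82%, 1.82% and 1.68%. In B cells it went from 2.35%, 2.38% and 2.35% to 2.26%, 2.14% and 2.08%. The groups overlapped in the other main classes. In whole libraries 8 of 17 glycolysis genes rose, among them Slc16a3, a lactate exporter (1.29), and Pgk1 (0.76). Myc, a driver of cell growth (-1.19), and the coactivators of mitochondrial biogenesis Ppargc1b (-0.90) and Pprc1 (-0.61) fell.

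**Figure D3:**
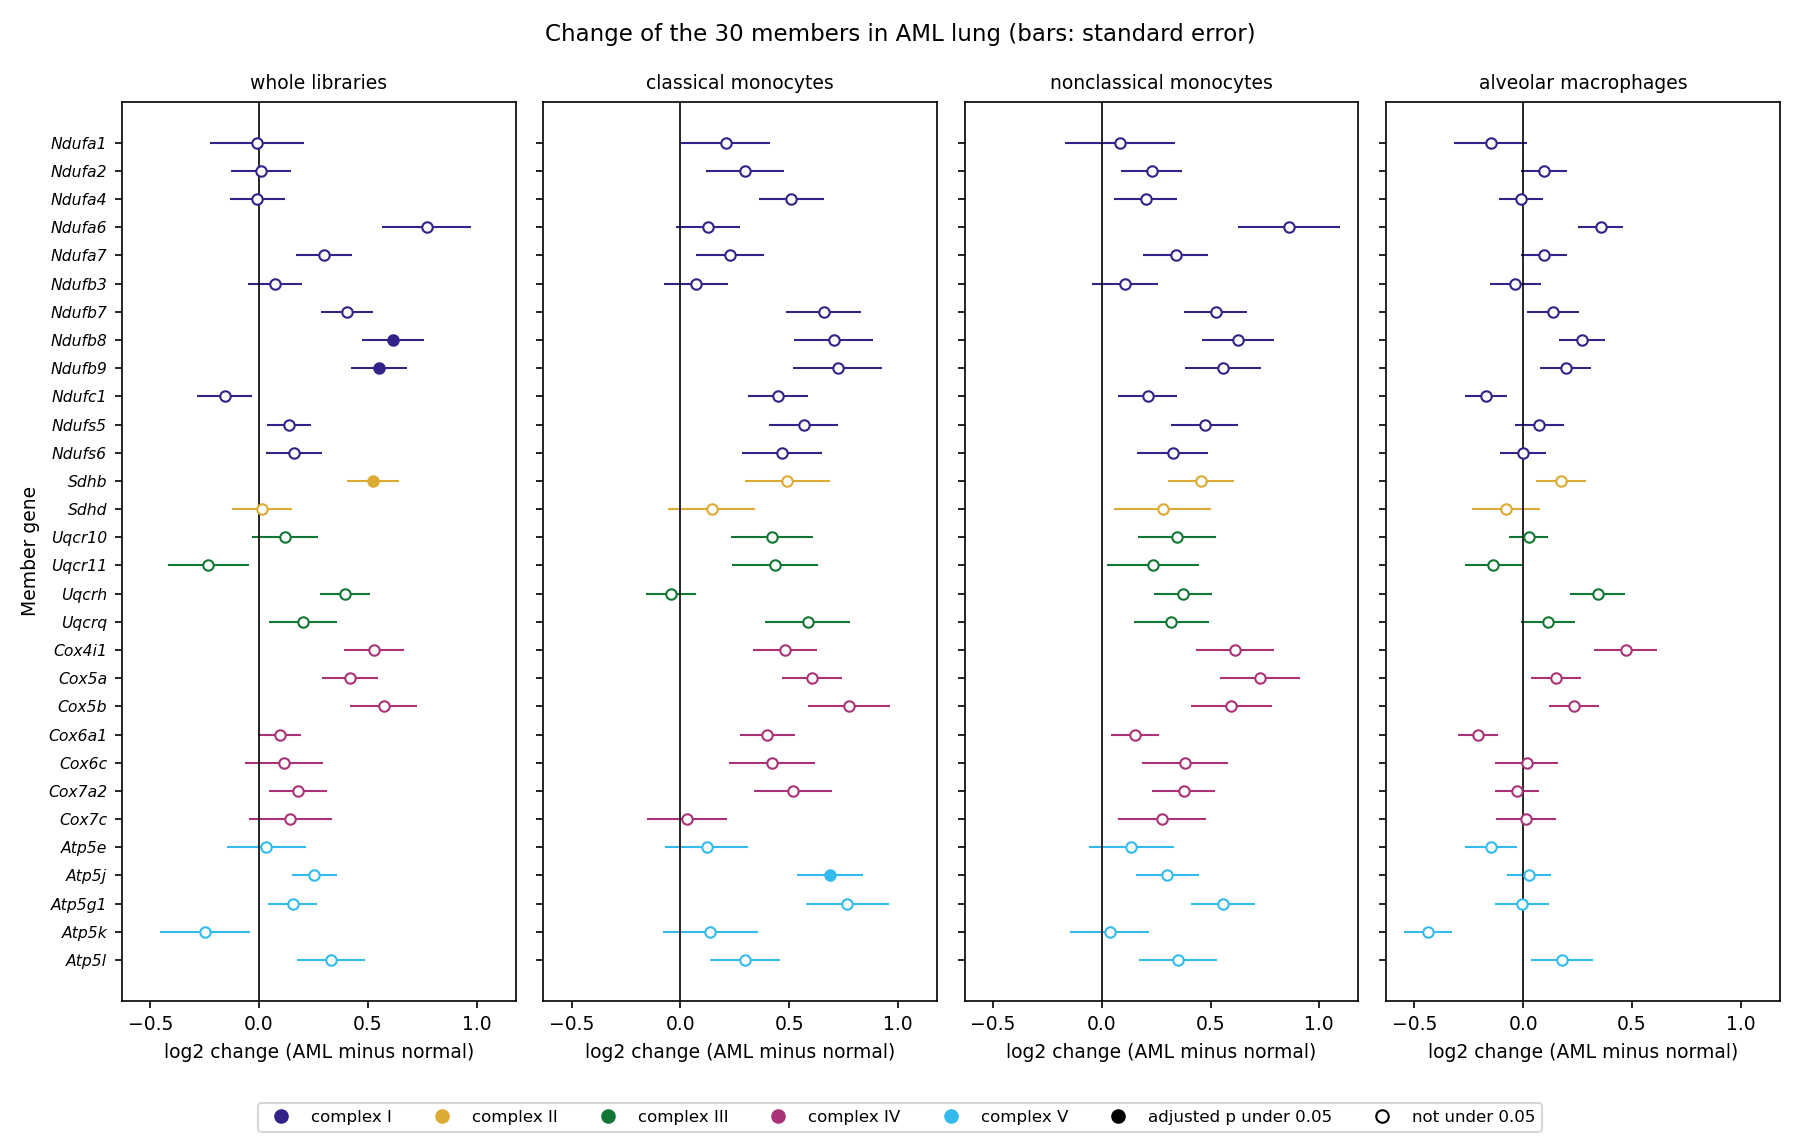
Log2 change between AML and normal lung (horizontal axis) for each member (vertical axis) in whole libraries and 3 classes, with bars of 1 standard error, colours for the complex and filled points for an adjusted p under 0.05. Sdhb, Ndufb8 and Ndufb9 are filled in whole libraries and Atp5j in classical monocytes, and the points of alveolar macrophages scatter about 0 (median 0.03).

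Within classical monocytes, where cells of other gated classes are not summed, 1 member rose and 0 fell, against 1.89% and 1.1% of 9928 features. No correction was made for RNA that droplets may hold from other cells. Atp5j (chromosome 16, 84827866 to 84835625, minus strand), the coupling factor in the outer stalk of ATP synthase, stood at 160, 180 and 156 CPM in normal 1 to 3 and at 267, 313 and 219 CPM in AML 1 to 3, which is 0.69 higher on the log2 scale (SE 0.15, edgeR adjusted p = 0.0478). All AML libraries lay above all normal ones, with AML 2 highest and AML 3 lowest of the 3. Cox5a stood at 155, 197 and 170 CPM and at 275, 284 and 235 CPM (0.60, adjusted p = 0.0527) and did not pass, nor did Cox5b (0.78, adjusted p = 0.0616) and Atp5g1 (0.77, adjusted p = 0.0647). Cox5b and Atp5g1 each have a near-identical copy among the counted features. The match of Cox5a there is Gm26631, a gene model that overlaps it on the opposite strand.

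Of the 30 members, 29 had a log2 change above 0 in classical monocytes and Uqcrh did not (-0.04), with a median of 0.44 against 0.02 over all features, 52.0% of which were above 0. The groups did not overlap for 16 members, all higher in AML, as for 15.6% of features (12.7% lower). At an unadjusted p under 0.05 there were 16 members and 22.7% of features. The summed members stood at 5742, 6368 and 5783 CPM in normal 1 to 3 and at 7353, 9391 and 6539 CPM in AML 1 to 3, 1.30-fold higher. The call on Atp5j was lost without any single library other than AML 3 and with RLE size factors, while leaving out AML 3 gave 15 called, DESeq2 7 and the replicate block 6. Without AML 2 the median was 0.26 and 22 members were above 0.

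Cells of this class also differed in other ways. Cells with at least 2 of 6 cycling genes made up 0%, 0.366% and 0.821% of classical monocytes in normal 1 to 3 and 12.4%, 15.6% and 2.68% in AML 1 to 3, and 7 of 11 cycling genes rose (Mki67 by 2.90). Among the gating markers of immature myeloid cells (Mpo, Elane, Prtn3, Ctsg and Ms4a3), the granule proteases Prtn3 and Elane rose as well. The rest of that list is not described here, and the part of immature cells in the member changes was not tested. Without the cycling cells 0 members passed and the median was 0.43. Among related genes Gapdh (1.12), Ldha (0.90) and Pgk1 (0.81) of glycolysis, Ndufv1, the NADH-binding subunit of complex I (0.94), Sdhaf1 (1.20) and the tricarboxylic acid cycle enzyme Mdh2 (0.83) rose, and hexokinase Hk2 fell by 1.22 (log2 change -1.22). Ribosomal protein genes were above 0 in 76 of 86 cases (median 0.25). With library sizes taken without ribosomal and mitochondrial genes, 0 members passed and the median was 0.43. Immediate early and heat shock genes, which respond to handling, took 0.874%, 0.853% and 0.917% of UMIs in normal 1 to 3 and 0.645%, 0.520% and 0.931% in AML 1 to 3, and their part was not tested.

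In nonclassical monocytes 0 members passed with edgeR, where 2.16% of the 10998 features rose and 1.64% fell, and DESeq2 called 7. All 30 had a log2 change above 0, as did 50.9% of features, with a median of 0.34 against 0.01. At an unadjusted p under 0.05 there were 12 members and 22.4% of features, and the groups did not overlap for 12, all higher in AML, as for 14.7% of features (14.2% lower). The summed members stood at 3854, 4591 and 4004 CPM in normal 1 to 3 and at 5117, 6618 and 4626 CPM in AML 1 to 3, 1.31-fold higher, with normal 2 and AML 3 close together. Without AML 3, 9 members passed (Ndufb8, Cox5a, Ndufb9, Ndufa6, Cox5b, Ndufb7, Ndufs5, Atp5g1 and Ndufa7), and without AML 2 the median was 0.16 with 27 above 0.

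The member of smallest p there was Cox5a, at 150, 210 and 177 CPM in normal 1 to 3 and at 293, 360 and 236 CPM in AML 1 to 3 (log2 change 0.73, SE 0.18, edgeR adjusted p = 0.0679). Ndufb8 stood at 77.7, 92.3 and 86.0 CPM and at 128, 161 and 106 CPM (0.63, SE 0.16, edgeR adjusted p = 0.0724). Atp5g1 stood at 57.2, 81.3 and 65.1 CPM and at 97.8, 108 and 93.5 CPM (0.56, SE 0.15, edgeR adjusted p = 0.0731). AML libraries lay above normal ones in all 3 genes, with AML 3 the lowest of them. Ldha (0.81) and Aldoa (0.81) of glycolysis and Sod2, the mitochondrial superoxide dismutase (1.65), rose, and Hk2 fell by 1.09. Ribosomal protein genes were above 0 in 78 of 87 cases (median 0.23). Immediate early and heat shock genes took 0.587%, 0.565% and 0.629% of UMIs in normal 1 to 3 and 0.295%, 0.276% and 0.617% in AML 1 to 3, with 14 of 14 below 0 (median -0.44) and 0 called. AML 3 thus lay at the normal level for these genes, and their part in the member changes was not tested.

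With edgeR the other classes held no call. In alveolar macrophages 0 members passed, as did 0 of 11640 features with edgeR. DESeq2 called 0 members too, and 5 had an unadjusted p under 0.05, as did 8.98% of features. Of the 30, 18 were above 0 (median 0.03), 6 lay without overlap above normal (7.8% of features) and 2 below (8.54%). Atp5k, a small membrane subunit of ATP synthase, stood at 168, 158 and 134 CPM in normal 1 to 3 and at 107, 120 and 113 CPM in AML 1 to 3 (-0.44, edgeR adjusted p = 0.542), the only one of the 3 smallest p to point down. Cox4i1, the core-binding regulatory subunit of complex IV, stood at 475, 571 and 631 CPM and at 667, 844 and 815 CPM (0.47), and Ndufa6 had a log2 change of 0.36, with the same adjusted p. Cox4i1 overlaps a gene model on its own strand (Gm20388), and its values are uncertain in that respect.

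NK cells came nearest to the monocytes, with 29 members above 0 and a median of 0.34, 10 without overlap above normal (10.7% of features) and 0 below (9.89%). By edgeR 0 were called, where 0.0421% of features rose and 0.0105% fell. DESeq2 called 2, and 9 had an unadjusted p under 0.05, as did 14.6% of features. Uqcrq stood at 119, 128 and 110 CPM in normal 1 to 3 and at 149, 200 and 154 CPM in AML 1 to 3 (0.50, edgeR adjusted p = 0.230), followed by Uqcrh (0.44) and Cox4i1 (0.45). All 3 genes had every AML library above every normal one.

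In B cells 0 members and 0 features passed, by DESeq2 0 members as well, and 11 members had an unadjusted p under 0.05, as did 10.9% of features. The median was 0.22 with 24 above 0, and 13 were without overlap above normal, against 9.54% of features, and 0 below, against 9.26%. Cox4i1 stood at 237, 271 and 289 CPM in normal 1 to 3 and at 331, 390 and 434 CPM in AML 1 to 3 (0.54, edgeR adjusted p = 0.409), with Cox5a at 0.46 and Uqcr10 at 0.47. The mitochondrially encoded to member ratio was 7.87 ± 0.346 in normal and 6.11 ± 0.694 in AML (SD, n = 3). B cells were the only main class without overlap in this ratio.

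T cells had 26 members above 0 (median 0.24), 4 without overlap above normal (8.19% of features) and 0 below (8.02%), 0 called by edgeR or DESeq2 among 0 features called by edgeR, and 3 at an unadjusted p under 0.05, a share near the 7.80% of all features. These were Atp5g1 (0.50), Cox4i1 (0.46) and Ndufb9 (0.55). In AML 3 29.9% of T cells were cycling, against 4.15% to 6.76% in the other libraries. Neutrophils had 23 above 0 (median 0.20), 6 without overlap above normal (9.71% of features) and 0 below (10.8%), 0 called by either tool and 0 features called by edgeR, and 3 at an unadjusted p under 0.05, a smaller share than the 13.9% of all features. They were Cox5a, at 60.2, 56.2 and 67.5 CPM in normal 1 to 3 and at 78.9, 85.5 and 128 CPM in AML 1 to 3 (0.68), Ndufb8 (0.53) and Ndufa4 (0.61). The AML 3 neutrophils also carried 6.82% of UMIs in ribosomal protein genes, against 2.05% to 3.33% in the other libraries. In cDC1 and mature dendritic cells edgeR called 0 of 30 and 0 of 29 members, with 1 at an unadjusted p under 0.05 in each (below 0 in cDC1), against 8.02% and 6.16% of features, where 0.0529% and 0% of features rose.

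Whether the AML change differed between classes was tested directly with a term for class by group. Between nonclassical and classical monocytes, 1 member differed, against 1.01% of features in that direction, and this was Ndufa6 (chromosome 15, 82350140 to 82354322, minus strand), a subunit of the matrix arm of complex I. In nonclassical monocytes it stood at 128, 147 and 143 CPM in normal 1 to 3 and at 205, 361 and 192 CPM in AML 1 to 3 (log2 change 0.86). In classical monocytes it stood at 210, 225 and 221 CPM and at 219, 288 and 208 CPM (0.13). The difference of the 2 changes was 0.73 (SE 0.14, edgeR adjusted p = 0.0361). The groups overlapped in classical monocytes and not in nonclassical ones. The call was lost without normal 1, normal 2, normal 3 or AML 2 and in cells of 1000 to 6000 UMIs.

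**Figure D4:**
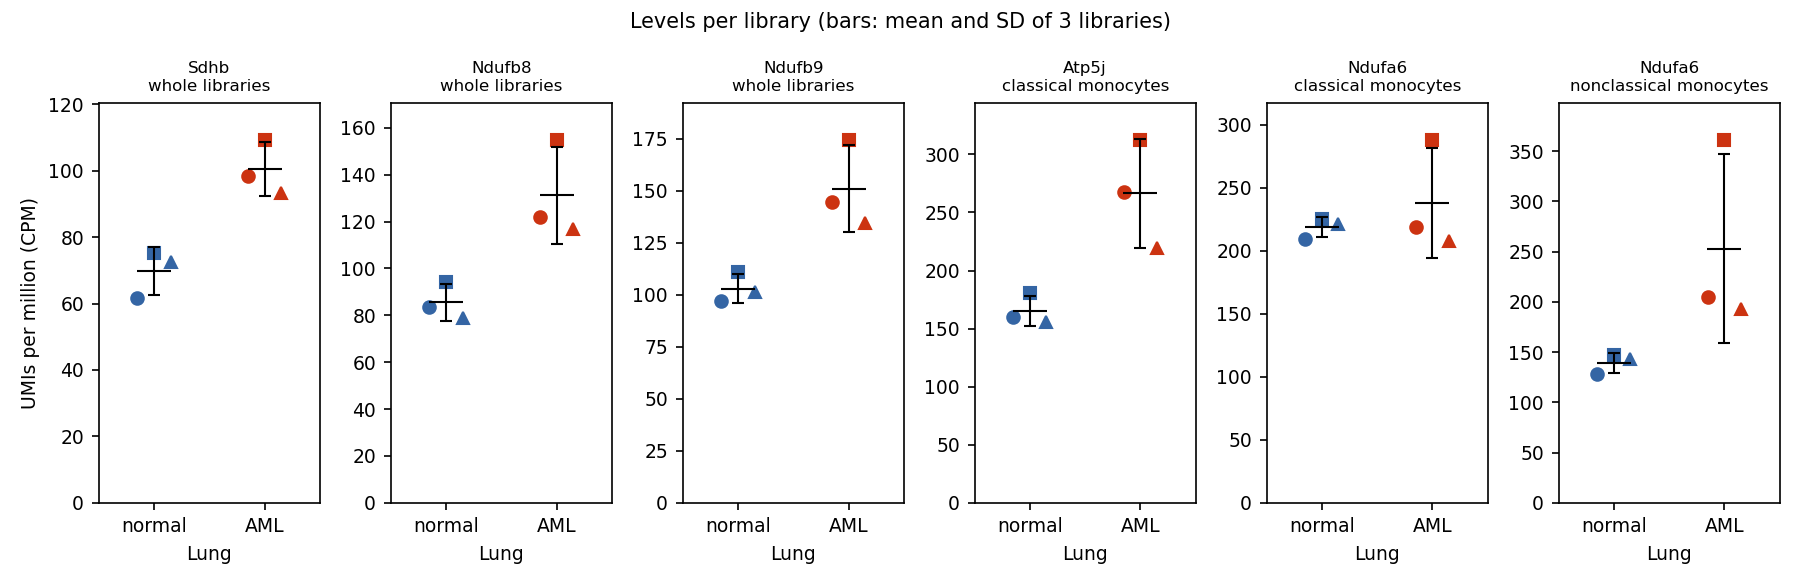
Level per library (vertical axis, CPM, linear from 0) of the members called between AML and normal lung, and of Ndufa6 in both monocyte classes. Ndufa6 was called only for the difference in AML change between these classes. Circles, squares and triangles are libraries 1, 2 and 3, and bars their mean and SD. Ndufa6 spans 128 to 147 in normal and 192 to 361 in AML nonclassical monocytes, while its classical monocyte values, 208 to 288, overlap between groups.

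Between nonclassical monocytes and alveolar macrophages 0 members differed with edgeR, against 0.521% of features, although the difference was above 0 for all 30 (median 0.33 against 0.01 over all features). Without AML 3, 5 differed: Cox5a, Atp5g1, Atp5k, Ndufb7 and Ndufs5.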

How the data were processed

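The deposited matrices hold UMI counts per gene and barcode, whole numbers that the authors had not normalized, made with Cell Ranger 7.0.0 on mm10, per the submitters' processing notes. The filter behind the barcode lists was not stated in the sources used. The labels give each library's group and replicate number. Libraries of 1 group differed beyond sampling noise in every pairing (chi-square per degree of freedom 43.9 to 178).

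Cells were kept with 200 genes or more, 500 UMIs or more and less than 10% mitochondrial UMIs. Classes were gated on marker genes, of which a cell needed at least 2 and at least 2 more than for any other class, so names were rebuilt here and may differ from the study's. No doublet caller was run, because the margin sets aside cells with markers of several types, and leaving out the deepest 5% of cells was tried instead. Counts were summed per library and class with at least 20 cells, or over all kept cells. They were tested with edgeR 4.0.16 in R 4.3.3 (TMM, filterByExpr, quasi-likelihood F test), adjusted by Benjamini-Hochberg over all features tested, at 0.05. CPM values are scaled by TMM within each fit, the standard error is the log2 change over the square root of F, and a class was compared with the mean of the other 6 main classes. The scripts were tested on simulated counts.

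The members and gene lists were chosen with earlier results of these data known. The text names every member, gives per-library levels of those past the threshold or, where none passed, of up to 3 of smallest p, and names at most 4 genes per other list and direction. Alternatives were DESeq2 1.42.0, the replicate block, each library left out, RLE size factors, no filter on low counts, library sizes without ribosomal and mitochondrial genes, no mitochondrial limit, cells of 1000 to 6000 UMIs, stricter and looser gates, and no cycling cells. Near-identical copies (at least 95% identity over at least 100 of the last 300 transcript bases, BLAST 2.17.0) were found for 14 members. Of these, 4 have a match among the features. For Cox5a this match is Gm26631, which overlaps it on the opposite strand. Gene positions are GENCODE's on GRCm38, and promoters from RefSeq on GRCm38.p6, where 25 of the 30 members matched. Interstitial macrophages, late neutrophil precursors, ILC2, cDC2 and pDC had too few libraries for a test.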

Additional observations from a re-analysis of the deposited data

Results flagged for a closer look

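Ndufa6 was the only member whose AML change differed between the classes tested. Its log2 change was 0.86 in nonclassical monocytes and 0.13 in classical monocytes, a difference of 0.73 by the test of class by group (SE 0.14, edgeR adjusted p = 0.0361). The difference was above 0 for 10 of the 30 members in this comparison, with a median of -0.06. Against alveolar macrophages the same difference for Ndufa6 was 0.46 (edgeR adjusted p = 0.330) and did not pass.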

How the results depend on the processing

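Calls in AML lung moved with the tool, the filters and the libraries, and AML 3, with a median of 1067 UMIs per barcode, limits depth. With DESeq2, 9 members were called in whole libraries, 7 in nonclassical monocytes, 7 in classical monocytes and 2 in NK cells, against 3, 0, 1 and 0 with edgeR. Without a low count filter the first 3 of these counts were 1, 8 and 13, and the median change over all features in nonclassical monocytes went from 0.01 to 0.15. In classical monocytes the count was 0 with RLE size factors, with library sizes without ribosomal and mitochondrial genes, in cells of 1000 to 6000 UMIs, with the loose gate and without cycling cells, and 2 with the strict gate. In cells of 1000 to 6000 UMIs whole libraries had 0, the difference between nonclassical and classical monocytes 0, and by class nonclassical monocytes had 3, NK cells 5 and neutrophils 18, of which 14 were higher instead of 5. The causes of these shifts were not tested.

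Leaving out each library in turn gave 0 to 7 calls in whole libraries, 0 to 9 in nonclassical monocytes, 0 to 15 in classical monocytes, 5 to 12 for nonclassical monocytes by class, 0 to 2 for nonclassical against classical monocytes and 0 to 5 for nonclassical monocytes against alveolar macrophages. Each highest value came without AML 3.

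With the replicate number as a block, 0 members were called in whole libraries, 7 in nonclassical and 6 in classical monocytes, and no other AML call moved. Whether same-numbered libraries are paired could not be decided from so few libraries. Their deviations correlated at 0.14 to 0.34 for number 1, -0.12 to -0.01 for number 2 and -0.06 to 0.40 for number 3. For number 3 only whole libraries lay below 0. Depth per cell also fell with the number in both groups.

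By class, the counts were 25 to 30 in classical monocytes, 24 to 28 in alveolar macrophages, 29 to 30 in B cells and 20 to 27 in T cells under every alternative run. The AML counts in alveolar macrophages, neutrophils, B cells and T cells were 0 under every alternative run. DESeq2 tested more features by class and moved their median from -0.12 to 0.81 in neutrophils, while the member median there was -0.08.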

Other observations

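Regulators of mitochondrial biogenesis also differed between classes. Ppargc1b, a coactivator of nuclear respiratory genes, was higher in alveolar macrophages (49.8 CPM against 13.2 CPM in the other classes, log2 difference 2.23), where 26 of 30 members were higher, and so was its relative Pprc1 (1.12). Both were lower in neutrophils (-1.80 and -2.13), as was Tfam, the transcription factor of mitochondrial DNA (-2.07). The related coactivator Ppargc1a was higher in NK cells (5.12, 19.0 CPM) and in B cells (4.06, 10.0 CPM), where 30 of 30 members were lower, and lower in alveolar macrophages (-4.80). Esrra, an orphan nuclear receptor that works with both coactivators, was higher in nonclassical monocytes (52.9 CPM against 26.4 CPM, log2 difference 1.07). All are differences that passed edgeR's test over the 7 main classes. The list as a whole did not run with the members. Of 13 regulators, 9 were higher and 2 lower in B cells, with Ppargc1b, Pprc1 and Tfam among the higher. In classical monocytes, where 30 of 30 members were higher, 0 were higher and 7 lower, Ppargc1b among them. Alveolar macrophages had 5 higher and 4 lower, and neutrophils 4 higher and 7 lower.

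Genes of mitochondrial import and of redox defence also followed the classes. Of 16 import genes, 13 were higher and 0 lower in alveolar macrophages, 12 were higher and 2 lower in classical monocytes, and 4 were higher and 11 lower in neutrophils. Of 14 redox and uncoupling genes, all 14 were higher in classical monocytes (median log2 difference 0.91), 11 were higher and 0 lower in alveolar macrophages, and 0 were higher and 11 lower in B cells. Assembly factors of the respiratory chain were more mixed, with 23 of 44 higher and 8 lower in alveolar macrophages and 8 higher and 29 lower in neutrophils.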
